A study of Mus musculus with 8 samples.

Results

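The genes described here are 8 members of a pair of matrix protein families: the matrilin genes Matn1, Matn2, Matn3 and Matn4, the cartilage oligomeric matrix protein gene Comp, and the thrombospondin genes Thbs1, Thbs2 and Thbs3. They were picked by symbol from a table of 24067 genes, and each had 1 row there. RNA was sequenced from primary articular chondrocytes, taken from the ends of femur and tibia at the knee of ICR mice aged 5 days and kept at 3% O2 in medium with 10% serum. Of the 8 libraries, 4 came from cells given a miR-204 mimic and 4 from cells given a control small RNA, miR-Ctrl. Each small RNA was used at 50 nM for 24 h, and RNA was taken 24 h later. No allele or further treatment is given in the labels for either group, and they do not say whether replicates were separate cultures or animals.

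Matrilins are adaptor proteins built of von Willebrand factor A domains and EGF-like repeats, which assemble through a coiled coil and link collagen fibrils to proteoglycans such as aggrecan. COMP belongs to the thrombospondin family and binds collagens of cartilage, and mutations of human COMP or MATN3 cause forms of chondrodysplasia. Thrombospondin-1 and thrombospondin-2 carry additional repeats that bind cell surface receptors such as CD36, while thrombospondin-3, thrombospondin-4 and COMP lack these repeats. MicroRNAs lower transcripts that pair with their seed, the bases near their 5′ end, mostly through sites in the 3′ UTR.

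Because the mimic carries a seed, the matches to it in the members' 3′ UTRs are shown first. In mature miR-204-5p (22 bases, RefSeq, GRCm38.p6, chr19:22750610-22750631, plus strand), bases 2 to 8 are in capitals. In the 5 sites listed after it, capitals mark the match, and each is read 5′ to 3′ on the strand of the transcript (GENCODE M21, mm10).
miR-204-5p: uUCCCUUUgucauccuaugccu
Matn1: gctgctttagcAAGGGAAcctgcggagga
Matn2: tcagagagccccAAGGGAccaggttagttg
Matn3: aaagctacaaacAAGGGAttataatacatg
Thbs1: gagcaagcagggAAGGGAgggagatcatag
Thbs2: tatatggagtcgAAGGGAgtattgtgttta

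Matn1 held the only match of 7 bases among the members, a 7mer-A1 (AAGGGAA) that begins 100 bases after the stop codon in a 3′ UTR of 459 bases (chr4:130955116-130955122, plus strand, exon 8 of 8). The other 4 sites were 6mers (AAGGGA). Those of Matn3 (chr12:8971080-8971085, plus strand) and Thbs1 (chr2:118125655-118125660, plus strand) lay in the last exon, as did that of Thbs2 (chr17:14667155-14667160, minus strand). The 6mer of Matn2 (chr15:34346908-34346913, plus strand) belongs to a short transcript model of 3 exons that ends inside the gene. The 3′ UTR of the Matn2 transcript that matches the RefSeq entry of the table has 486 bases and held no match. No match was found for Comp, Matn4 and Thbs3, whose longest annotated 3′ UTRs are 167, 263 and 253 bases long. Of 11192 tested genes with an annotated 3′ UTR, 24.0% held a match of 7 or 8 bases and 36.9% held any match.

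The deposited values are FPKM, fragment counts scaled by transcript length and library size, and levels of different genes are compared here on that scale, which is per length. Sequencing depth, read from the steps between low FPKM values, was between 0.772 and 1.0 relative to miR-Ctrl replicate 1, and lowest in both replicate 2 libraries. Both libraries of replicate 2 stood apart. There the acute-phase gene Saa3 was the most abundant gene, at 16455 FPKM with miR-204 and 26618 FPKM with miR-Ctrl, against 17.9 to 225 FPKM in the other 6 libraries. All 6 chondrocyte markers (Col2a1, Acan, Sox9, Hapln1, Col9a1 and Snorc) were above 1 FPKM. The 4 endothelial markers summed to at most 0.419 FPKM in any library and the 4 megakaryocyte and platelet markers to at most 2.23 FPKM. The 4 macrophage markers summed to 2.82 to 5.05 FPKM with miR-204 and 0.649 to 2.58 FPKM with miR-Ctrl, and Cd68 was the 1 of them above a mean of 1 FPKM. Cd68 averaged 3.93 FPKM with miR-204 and 1.51 FPKM with miR-Ctrl, while Csf1r averaged 0.112 FPKM with miR-204 and 0.111 FPKM with miR-Ctrl. Ptprc averaged 0.0116 FPKM with miR-204 and 0.0103 FPKM with miR-Ctrl, and Adgre1 (listed as Emr1) 0.0421 FPKM with miR-204 and 0.1002 FPKM with miR-Ctrl. The 4 smooth muscle and pericyte markers summed to 159 to 226 FPKM with miR-204 and 85.2 to 100 FPKM with miR-Ctrl. Nearly all of this was Acta2, smooth muscle actin, the 1 of them above a mean of 1 FPKM. Acta2 rose from 92.0 FPKM with miR-Ctrl to 187 FPKM with miR-204 (log2 fold change 1.01, adjusted p = 0.0242 by limma without the replicate number). Over the 8 libraries Notch3 averaged 0.870 FPKM, Rgs5 0.209 FPKM and Myh11 0.103 FPKM. The 6 synovial, tendon and fibrous tissue markers summed to 1009 to 2282 FPKM with miR-204 and 1010 to 2102 FPKM with miR-Ctrl. Most of this was Col1a1 (mean 1074 FPKM over the 8 libraries) and Col3a1 (455 FPKM). The others were far lower, with means of 22.3 FPKM for Scx, 21.6 for Prg4, 11.6 for Tnmd and 7.04 for Pdgfra. The log2 fold change was positive for 5 of these 6, and likewise for 8609 of the 11612 genes in the fit. With the replicate number as a block, the tendon gene Tnmd was the 1 of the 6 called higher (0.29, adjusted p = 0.0125 by limma). That paired fit called 12.4% of the 11612 genes higher. No marker of these lists was at 0 in every library. The part of these shifts in the results was not tested.

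Matn1, Comp and Thbs1 were among the abundant transcripts of these cells. Over the 8 libraries they averaged 1627, 1406 and 1374 FPKM, and these means ranked 26, 41 and 44 among the 11612 genes that averaged 1 FPKM or more. The order of the 3 was not fixed, since Matn1 exceeded Comp in 3 of 8 libraries and Comp exceeded Thbs1 in 5. Matn3 followed at a mean of 155 FPKM, below Thbs1 and above Matn4 in all 8 libraries. Matn4 (35.3 FPKM), Thbs2 (25.6), Thbs3 (23.9) and Matn2 (17.4) formed the low group, in which neighbours changed places: Matn4 was above Thbs2 in 6 libraries, Thbs2 above Thbs3 in 4 and Thbs3 above Matn2 in 6. Thbs4, a thrombospondin of tendon and muscle and not a member, was lower than Matn2 in all 8 libraries, with a mean of 4.26 FPKM.

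Matn1 made up 87.0% ± 3.33 of the summed matrilin FPKM with miR-204 and 87.2% ± 4.64 with miR-Ctrl (SD, n = 4 each). Thbs1 made up 96.5% ± 0.397 of the sum of Thbs1 to Thbs4 with miR-204 and 95.9% ± 0.536 with miR-Ctrl, a sum that leaves out Comp. The Comp level was 41.4% to 132% of that of Thbs1 with miR-204 and 49.7% to 184% with miR-Ctrl. All 8 members together held between 0.581% and 1.35% of the FPKM of a library, with the lowest shares in both replicate 2 libraries.

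**Figure D1:**
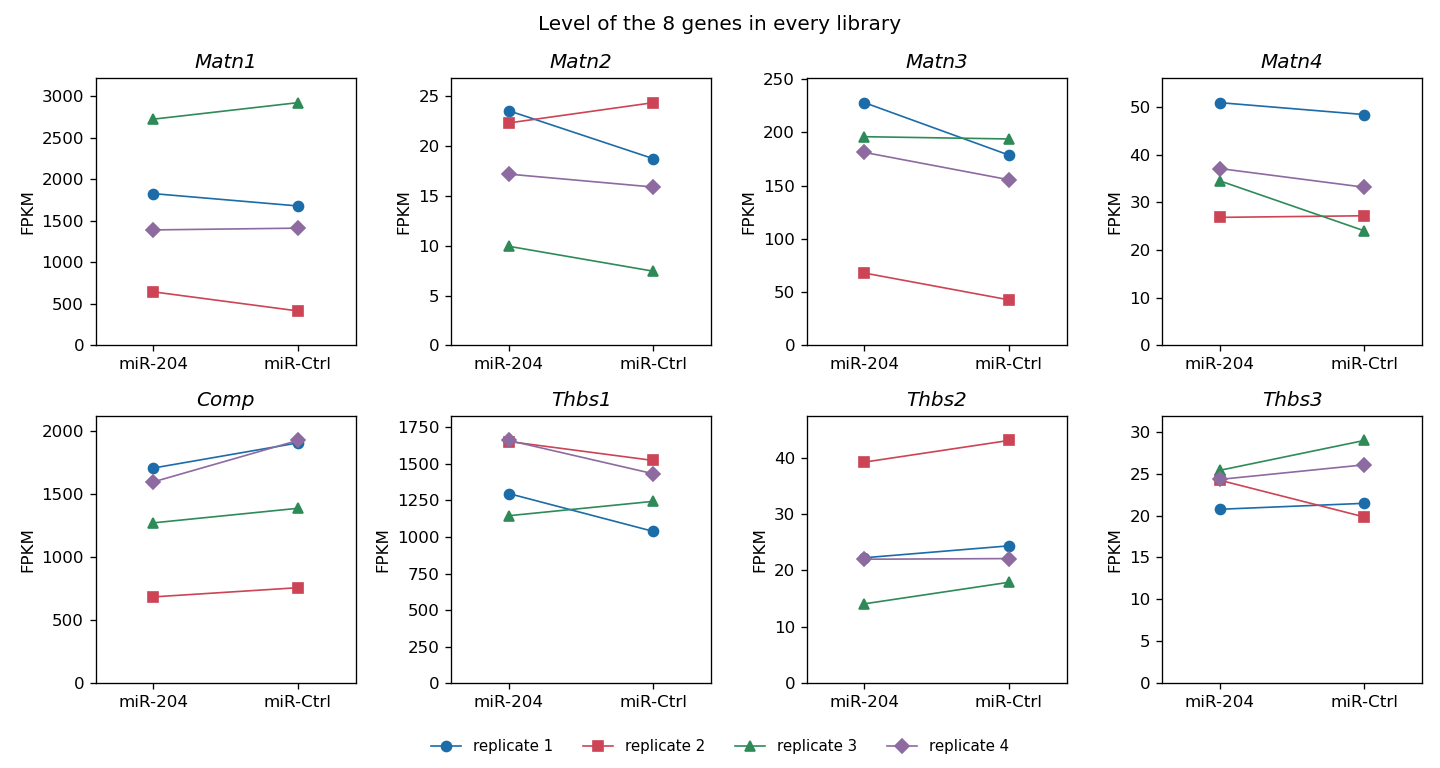
FPKM of each member (vertical axes, linear, from 0) in the miR-204 libraries (left) and the miR-Ctrl libraries (right) of each panel; a line joins the 2 libraries of equal replicate number, and each point is 1 library. Comp and Thbs2 lay lower with miR-204 in all 4 pairs, Matn3 lay higher in all 4, and in every panel the groups overlap.

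The main question was whether any member differed after the mimic. In limma on log2(FPKM + 1) without the replicate number, 0 of 8 members were higher and 0 lower (adjusted p from 0.872 to 0.993 over all 11612 genes), where 0.0258% of all tested genes were called higher and 0.181% lower. At an unadjusted p under 0.05 there were 0 members, against 6.57% of all tested genes higher and 2.02% lower. The groups overlapped in all 8 members, while 4.32% of all tested genes lay higher and 1.58% lower without overlap. Libraries of equal number resembled each other, so the same model was also fitted with the number as a block. In that fit Comp fell and 0 of 8 members rose, against 2.83% of all tested genes lower and 12.4% higher. Of all tested genes 4.32% were lower and 4.99% higher in the paired fit on libraries centred on their median, and 4.62% lower and 4.78% higher after quantile normalization, and in both Comp was the 1 member called. By unadjusted p, 3 members (Comp, Matn3 and Thbs2) were under 0.05 in the paired fit, as were 29.9% of all tested genes among the higher and 5.73% among the lower. The median log2 fold change was 0.15 over the members and 0.064 over all tested genes, with 5 of 8 and 8609 of 11612 above 0.

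Comp (gene ID 12845, chr8:70373558-70382066, plus strand, mm10) was at 1708, 685, 1273 and 1598 FPKM in miR-204 replicates 1 to 4, against 1907, 758, 1388 and 1927 FPKM in miR-Ctrl replicates 1 to 4. Each miR-204 library was below its partner, while the replicates of either group differed over 2-fold. The means were 1316 ± 460 FPKM with miR-204 and 1495 ± 551 FPKM with miR-Ctrl (SD, n = 4 each). The differences within pairs 1 to 4 were −0.16, −0.15, −0.13 and −0.27 on the log2(FPKM + 1) scale. Their SD of 0.065 was the smallest of the members, and the median SD over all tested genes was 0.097. The log2 fold change was −0.17, with a SE of 0.38 unpaired (adjusted p = 0.947 by limma) and of 0.041 paired (adjusted p = 0.0401 by limma). The paired 95% interval runs from 0.826-fold to 0.949-fold. In the paired fit Comp remained past the threshold with libraries centred on their median (−0.24, adjusted p = 0.0244 by limma) and with quantile normalization (−0.27, adjusted p = 0.0328). It was lost without the filter on low genes (adjusted p = 0.139), without replicate 1 (0.140), without replicate 3 (0.108) and without replicate 4 (0.236). It was kept without replicate 2 (0.0294), where 522 of all 11612 tested genes were called lower.

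Col2a1, the fibrillar collagen that COMP binds, also lay lower with miR-204 in all 4 pairs, but passed neither fit (log2 fold change −0.23, paired adjusted p = 0.0594 by limma). Comp was at 10.3%, 8.74%, 6.06% and 9.93% of the Col2a1 level in miR-204 replicates 1 to 4, and at 10.2%, 9.23%, 5.04% and 9.91% in miR-Ctrl replicates 1 to 4. The ratio was thus higher with miR-204 in 3 of 4 pairs, although Comp itself was lower in 4 of 4. Of the 6 chondrocyte markers, Hapln1, which links aggrecan to hyaluronan, fell in the paired fit (log2 fold change −1.04, adjusted p = 0.00136 by limma). In that fit 0 of the 6 rose, and 2.83% of all tested genes were lower and 12.4% higher. Hapln1 was also the 1 of the 6 with a seed match of 7 or 8 bases, which 24.0% of tested genes held. Such a match was also held by Col6a1, Cacna2d1, Adamts5 and P4hb, which fell in the same fit and are described below. In their lists 3 of 13, 4 of 12, 2 of 10 and 2 of 12 genes held one, among them Col6a2, Lrp8, Mmp13 and B3galtl, which were not called. The part of these matches in the decreases, and of the Hapln1 decrease in the Comp result, was not tested. In bulk RNA, fewer cells of a type and less RNA per cell cannot be told apart.

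Matn1 (17180, chr4:130944385-130955475, plus strand), the founding cartilage matrilin, was at 1827, 644, 2725 and 1390 FPKM in miR-204 replicates 1 to 4, against 1679, 414, 2923 and 1412 FPKM in miR-Ctrl replicates 1 to 4. Replicate 3 was high and replicate 2 low in both groups, a spread of 2.82 on the log2 scale over the 8 libraries. The 4 pairs split evenly in sign, with differences of 0.12, 0.64, −0.10 and −0.022. The mean log2 fold change of 0.16 rested on pair 2, since it was −0.00036 without both replicate 2 libraries. Matn1 passed neither fit (adjusted p = 0.979 unpaired and 0.384 paired by limma). The 95% interval was 0.403-fold to 3.09-fold unpaired and 0.915-fold to 1.36-fold paired, so both include decreases. No decrease of Matn1, the member with the 7mer-A1 site, was detectable in these libraries.

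Matn3 (17182, chr12:8947929-8972028, plus strand), which can form mixed oligomers with matrilin-1, was at 228, 67.9, 196 and 181 FPKM in miR-204 replicates 1 to 4, against 179, 42.7, 194 and 155 FPKM in miR-Ctrl replicates 1 to 4. It was the 1 member above its partner in all 4 pairs, as were 33.9% of all tested genes, while Comp and Thbs2 were below theirs in all 4, as were 7.44%. The pair differences of Matn3 ranged from 0.016 in pair 3 to 0.66 in pair 2, with a log2 fold change of 0.31 that did not pass (adjusted p = 0.922 unpaired and 0.0768 paired by limma). Without both replicate 2 libraries the paired log2 fold change was 0.19 (adjusted p = 0.0733 by limma). The Matn3 level was 12.5%, 10.5%, 7.19% and 13.0% of that of Matn1 in miR-204 replicates 1 to 4, and 10.6%, 10.3%, 6.63% and 11.0% in miR-Ctrl replicates 1 to 4. This ratio was higher with miR-204 in every pair and lowest in both replicate 3 libraries, where Matn1 was highest.

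Matn4 (17183, chr2:164389393-164405160, minus strand), a matrilin found in cartilage and in other tissues, was at 50.9, 26.8, 34.5 and 37.1 FPKM in miR-204 replicates 1 to 4, against 48.4, 27.2, 24.0 and 33.2 FPKM in miR-Ctrl replicates 1 to 4. Pair 3 carried the largest difference (0.50) and pair 2 one of −0.017. The log2 fold change of 0.18 passed neither fit (paired adjusted p = 0.183 by limma), and was 0.070 without both replicate 3 libraries. Its gene overlaps Rbpjl on the opposite strand over 2020 bases, but the highest Rbpjl value was 0.174 FPKM.

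Matn2 (17181, chr15:34306677-34436273, plus strand), the matrilin of wider distribution in connective tissue, was at 23.5, 22.3, 9.94 and 17.2 FPKM in miR-204 replicates 1 to 4, against 18.7, 24.4, 7.44 and 15.9 FPKM in miR-Ctrl replicates 1 to 4. Its low libraries were those of replicate 3, where Matn1 was highest. The log2 fold change of 0.17 passed neither fit on all libraries (paired adjusted p = 0.200 by limma). Pair 2 was the 1 pair with a lower value under miR-204 (−0.12), and without it Matn2 passed the paired test at 0.27 (adjusted p = 0.0264 by limma). It did not with libraries also centred on their median (0.19, adjusted p = 0.0675 by limma). Without pair 2 the paired fit called 2781 of all 11612 tested genes higher, and 1271 with centred libraries. Its gene overlaps 9430069I07Rik on the opposite strand over 8822 bases.

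Thbs1 (21825, chr2:118111876-118127133, plus strand), which can activate latent TGF-beta, was at 1297, 1653, 1146 and 1661 FPKM in miR-204 replicates 1 to 4, against 1038, 1524, 1244 and 1433 FPKM in miR-Ctrl replicates 1 to 4. Unlike Matn1, Matn3 and Comp it was not low in replicate 2, and its span over the libraries was 0.68 on the log2 scale. Pairs 1, 2 and 4 were higher with miR-204 (0.32, 0.12 and 0.21) and pair 3 lower (−0.12). The log2 fold change of 0.13 passed neither fit (adjusted p = 0.872 unpaired and 0.243 paired by limma), and the paired 95% interval was 0.970-fold to 1.24-fold. Its gene overlaps the long noncoding RNA gene Gm29233 on the opposite strand over 597 bases.

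Thbs2 (21826, chr17:14665500-14694235, minus strand), the other thrombospondin with receptor-binding repeats, was at 22.2, 39.2, 14.1 and 22.0 FPKM in miR-204 replicates 1 to 4, against 24.3, 43.0, 17.9 and 22.1 FPKM in miR-Ctrl replicates 1 to 4. Both replicate 2 libraries were the highest and both replicate 3 libraries the lowest. Every pair was lower with miR-204, by between 0.0071 in pair 4 and 0.33 in pair 3. The log2 fold change of −0.15 did not pass (adjusted p = 0.952 unpaired and 0.113 paired by limma), nor with centred libraries in the paired fit (−0.21, adjusted p = 0.0730).

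Thbs3 (21827, chr3:89215180-89226837, plus strand), a thrombospondin with roles in skeletal growth in mice, was at 20.8, 24.2, 25.4 and 24.3 FPKM in miR-204 replicates 1 to 4, against 21.5, 19.8, 29.0 and 26.1 FPKM in miR-Ctrl replicates 1 to 4. It was the steadiest member, with a span of 0.52 on the log2 scale. The log2 fold change was −0.012 (paired adjusted p = 0.925 by limma), and the paired 95% interval was 0.874-fold to 1.12-fold. Pair 2 was higher with miR-204 (0.28) and the other pairs lower. Without both replicate 2 libraries the paired value was −0.11 (adjusted p = 0.0916 by limma). With libraries centred as well, a setting chosen after seeing the data, it was −0.18 (adjusted p = 0.0360 by limma). In that setting 1027 of all 11612 tested genes were called lower. The Thbs3 gene lies within the annotated span of Mtx1 on the opposite strand, and Mtx1 was at 13.5 to 16.2 FPKM. No source used here says whether the authors' quantification used the strand of the reads, so reads of Thbs3 and Mtx1 may not be fully separated. Thbs4 (21828), at 2.62 to 6.49 FPKM over the libraries, passed neither fit (0.072, paired adjusted p = 0.290 by limma).

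**Figure D2:**
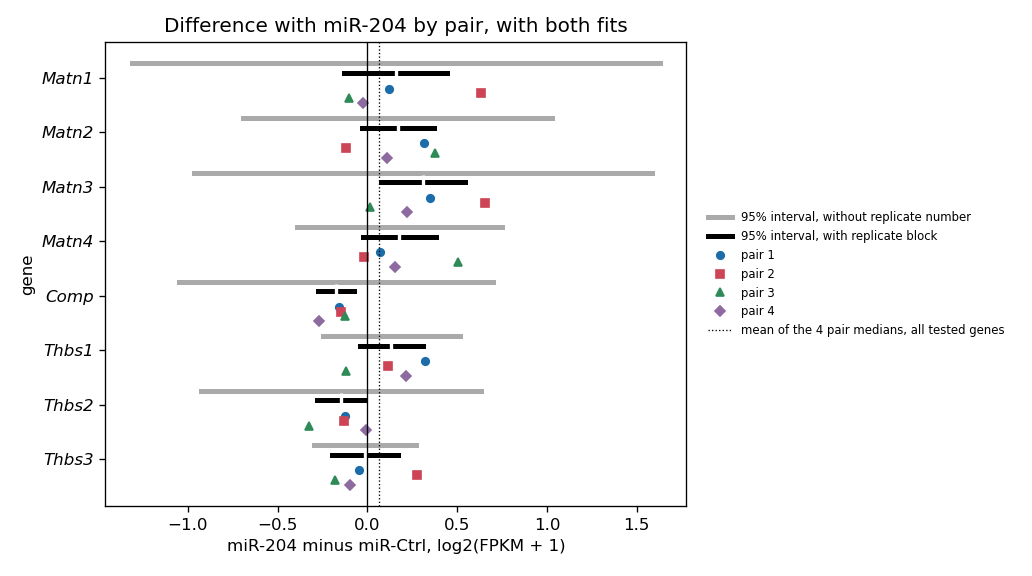
Difference of miR-204 minus miR-Ctrl in log2(FPKM + 1) for each member: coloured points are the 4 pairs of equal number, bars are the 95% intervals of limma without the number (grey) and with it as a block (black), with the estimate as a gap in the black bar, and the dotted line is the mean of the 4 pair medians over all tested genes. The grey intervals all include 0, and the Comp points lie close together, between −0.27 and −0.13.

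More of the spread of the members went with the replicate number than with the mimic, as in the medians over all tested genes. The number has more levels than the mimic, so its share would be larger even in values without any pattern. The number accounted for 72.5% (Thbs3) to 97.1% (Comp) of the sum of squares of log2(FPKM + 1) over the 8 libraries, and the mimic for 0.139% (Thbs3) to 8.28% (Thbs1). Over all tested genes the medians were 73.6% for the number and 10.2% for the mimic. The median span of a tested gene over the 8 libraries was 0.42 on the log2 scale, and each of the 8 members spanned more than that, up to 2.82 for Matn1 and 2.39 for Matn3.

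**Figure D3:**
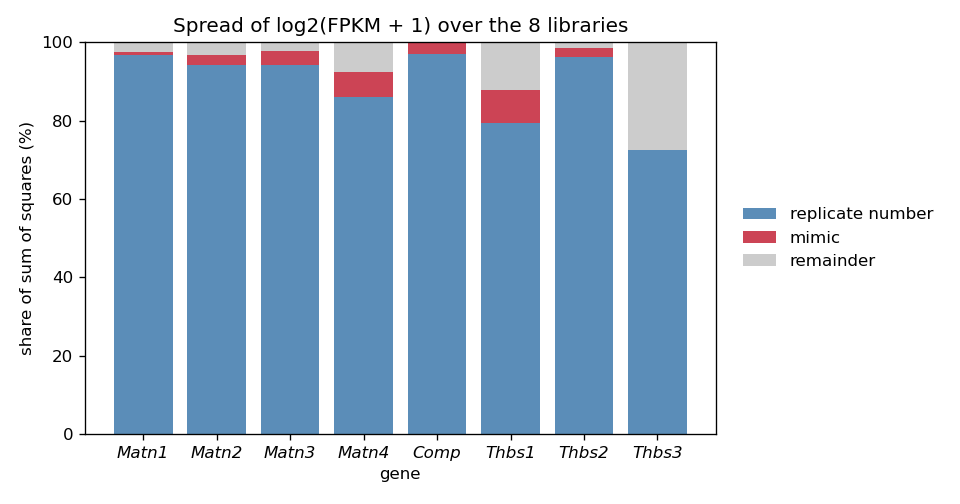
Share of the sum of squares of log2(FPKM + 1) over the 8 libraries (stacked bars, percent) that goes with the replicate number, with the mimic and with neither, for each member. The replicate number holds 72.5% to 97.1%.

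The members did not vary together across replicate numbers. Relative to the gene's mean over the 8 libraries, on the log2 scale, Matn1 in replicate 2 was at −1.09 with miR-204 and −1.73 with miR-Ctrl. Matn3 was at −1.01 with miR-204 and −1.66 with miR-Ctrl there, and Comp at −0.95 and −0.80. Thbs2 was above its mean in the same libraries, at 0.68 with miR-204 and 0.81 with miR-Ctrl, and so was Matn2, at 0.43 and 0.55. Replicate 3 showed the reverse for Matn1, at 0.99 with miR-204 and 1.09 with miR-Ctrl, and for Matn2, at −0.66 and −1.04. Aggrecan, the proteoglycan that matrilins bind, was at 407 FPKM with miR-204 and 386 FPKM with miR-Ctrl in replicate 2, against 959 to 1710 FPKM in the other 6 libraries. The summed fibrous tissue markers, mostly Col1a1 and Col3a1, were at 1440 FPKM with miR-204 and 1507 FPKM with miR-Ctrl in replicate 2. Both sums lay inside the range of the other libraries. The part of depth, of the Saa3 level and of cell makeup in these replicate differences was not tested.

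**Figure D4:**
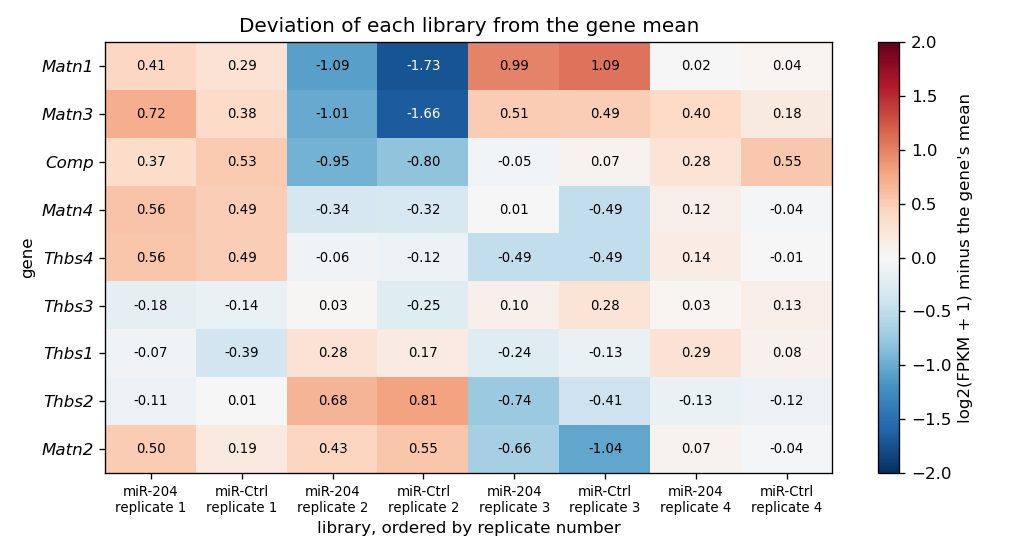
Each cell gives log2(FPKM + 1) of a gene in a library minus that gene's mean over the 8 libraries, for the 8 members and Thbs4 (rows), with the libraries (columns) in pairs of equal replicate number. Matn1, Matn3 and Comp are low in both replicate 2 libraries, where Thbs2 and Matn2 are high.

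Likeness of pattern was measured as the root mean square difference of gene-centred log2(FPKM + 1) over the 8 libraries, among 5528 other genes averaging 10 FPKM or more. It is a description, shaped mostly by the replicate numbers. Nearest to Matn1 were Clec3a (0.23), Snorc (0.29, listed as 3110079O15Rik), and Cmtm5 (0.31), and among the members Matn3 (0.33). Comp lay nearest to Slc26a2 (0.13), Timp3 (0.16) and Osgin2 (0.20), closer than to any other member (Matn4 at 0.41). Slc26a2 encodes the sulfate transporter of cartilage, and Timp3 an inhibitor of matrix-degrading proteases. Matn3 was nearest to Gal3st1 (0.22), G0s2 (0.23) and Fxyd6 (0.24), Matn2 to Mmp14, Pltp and Rnase4 (0.11 to 0.12), Matn4 to Crispld1, Fzd9 and Mcm3 (0.089 to 0.12), and Thbs2 to Gm7120, Maf and Rbpj (0.12 to 0.14). Thbs1 and Thbs3 spanned less than 1 on the log2 scale and were left out of this comparison.

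Genes that work with these proteins were read from the same fits, in which 0 of them passed without the replicate number. Of all tested genes, 12.4% were higher and 2.83% lower in the paired fit (4.99% and 4.32% with centred libraries), with a median log2 fold change of 0.064. Of 13 matrix partners 1 rose and 1 fell: Col6a3 rose (0.44, paired adjusted p = 0.0326 by limma) and Col6a1 fell (−0.43, paired adjusted p = 0.00710). Both encode chains of collagen VI, the microfibrillar collagen around chondrocytes that matrilins bind through small proteoglycans. The median log2 fold change of this list was −0.085. Col6a1 was at 311 ± 27.5 FPKM with miR-204 and 420 ± 46.5 FPKM with miR-Ctrl, and Col6a3 at 119 ± 22.6 FPKM with miR-204 and 88.7 ± 20.8 FPKM with miR-Ctrl (SD, n = 4 each). Acan (−0.28) and the small proteoglycan genes Dcn (0.22) and Bgn (0.15) did not pass.

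Of 13 thrombospondin receptor genes 12 were tested, since Cd36 reached only 0.365 FPKM. In the paired fit 3 rose and 1 fell, against 12.4% higher and 2.83% lower of all tested genes, with a median of 0.18 over the list. Itgav, the alpha V integrin chain that binds the RGD sequence, rose (0.32, adjusted p = 0.00750 by limma), and so did the integrin gene Itga3 (0.43, adjusted p = 0.0187) and Cd47 (0.27, adjusted p = 0.0273). Cacna2d1, a calcium channel subunit, fell (−0.18, adjusted p = 0.0302). All 4 calls remained with centred libraries.

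Of 7 genes of latent TGF-beta, which thrombospondin-1 can activate, 2 rose in the paired fit and 0 fell (median 0.19). Of all tested genes 12.4% were higher and 2.83% lower in that fit. With centred libraries 1 of the 7 rose, as did 4.99% of all tested genes. Tgfb3 rose by 0.31 (adjusted p = 0.0139 by limma) and Tgfb1 by 0.20 (adjusted p = 0.0372), of which Tgfb1 did not pass with centred libraries (adjusted p = 0.0939). Of 10 proteases reported to cut these proteins, 0 rose and 1 fell, against 12.4% and 2.83% of all tested genes (list median −0.11). The 1 was Adamts5, an aggrecanase (−0.40, paired adjusted p = 0.0365 by limma). With centred libraries Adamts1 was lower too (−0.28, adjusted p = 0.0393). Adamts5 was at 6.26 ± 4.31 FPKM with miR-204 and 9.43 ± 8.11 FPKM with miR-Ctrl (SD, n = 4 each), and was highest in both replicate 2 libraries. Adamts7, a protease that cuts COMP, was at 4.53 FPKM with miR-204 and 5.23 FPKM with miR-Ctrl in replicate 2 and at 0.558 to 0.950 FPKM elsewhere, and did not pass (0.091). In replicate 2 Mmp3 was at 1262 FPKM with miR-204 and 1654 FPKM with miR-Ctrl, against 2.75 to 58.1 FPKM elsewhere. Mmp13 was at 908 and 1628 FPKM there, in the same order, against 3.66 to 54.8 FPKM elsewhere. Mmp9 was at 8.86 and 8.54 FPKM, against 0.154 to 0.318 FPKM. Adamts12 and Htra1 were not highest in both replicate 2 libraries.

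Of 12 genes of folding and O-fucosylation in the endoplasmic reticulum, 0 rose and 1 fell, against 12.4% and 2.83% of all tested genes. The 1 was P4hb, a protein disulfide isomerase (−0.30, paired adjusted p = 0.0115 by limma). P4hb was at 513 FPKM with miR-204 and 632 FPKM with miR-Ctrl on average, and was lower in 4 of 4 pairs. The list's median was 0.0090. Pofut2, which adds fucose to thrombospondin repeats, did not pass (0.047), nor did the chaperone genes Hspa5 (−0.018) and Calr (−0.049). Among 5 relatives with related domains 3 were tested. Vwa1, a matrix protein with a von Willebrand factor A domain, averaged 1.52 FPKM with miR-204 and 0.815 FPKM with miR-Ctrl (log2 fold change 0.46, paired adjusted p = 0.0218 by limma). It passed the filter of 1 FPKM only through the miR-204 libraries, so its call is not counted here. Vit did not pass (−0.19), but did with centred libraries (−0.25, adjusted p = 0.0311 by limma). Of the SOX factors that drive cartilage genes, Sox9 (−0.12, paired adjusted p = 0.0599 by limma), Sox6 (0.049) and Sox5 (0.034) did not pass, and Sox9 did so with centred libraries (−0.19, adjusted p = 0.0217).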

How the data were processed

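Stranded libraries of polyadenylated RNA were made, per the labels' protocols. The authors deposited FPKM values for each gene in each library. TopHat, Cufflinks 2.2.1 and mm10 stand in the submitters' processing notes, while the Cufflinks mode, filters and read totals were not stated. FPKM are not counts, so no count model was used. Labels gave the groups and the replicate numbers. Genes averaging 1 FPKM or more were tested with limma 3.58.1 (R 4.3.3, trended prior, two-sided, Benjamini-Hochberg over 11612 genes, threshold 0.05) on log2(FPKM + 1), a scale that understates changes of low genes. The fit was tested on simulated data, but the changes added there were larger than that of Comp. That test therefore says nothing of calls as small as that of Comp. The main fit had no replicate number. The number paired the samples: deviations from group means correlated at r = 0.44, 0.82, 0.76 and 0.62 (across genes) between libraries of equal number, so the pairing comes from the data. With no labels on cultures or animals, the p-values reflect no more than the differences among these 8 libraries, possibly technical ones. Intervals are not adjusted for multiple tests. Seed matches were searched in the longest 3′ UTR of GENCODE M21 protein-coding transcripts. The members, lists and tests were chosen with earlier results of these data known. Named genes were the members, Thbs4, up to 3 paired calls per list or else the 2 of highest mean; others were named after their values were seen. Proteins were not compared.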

Additional observations from a re-analysis of the deposited data

How the results depend on the processing

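Comp kept its direction in the paired fits, from −0.26 to −0.14 with replicates left out. With the replicate block 1 member (Comp) was lower, also at a pseudocount of 0.1, with centred libraries, with quantile normalization and without replicate 2, where 1 member (Matn2) was higher. Without replicate 2 and with centred libraries, a setting chosen after seeing the data, 2 members (Comp and Thbs3) were lower. Of all genes, 1436 were higher and 329 lower with the block, 1434 and 332 at a pseudocount of 0.1 with it, 542 and 197 without the filter, 579 and 502 with centred libraries, and 555 and 536 with quantile normalization. Without the block these were 0 and 9 unfiltered, 8 and 55 centred and 7 and 66 by quantiles, against 3 and 21 as reported. Leaving out libraries without the block gave 0 to 4 higher and 0 to 16 lower. With the block there were 89 higher and 83 lower without replicate 1, 2781 and 522 without replicate 2 (1271 and 1027 if also centred), 236 and 149 without replicate 3, and 42 and 48 without replicate 4. The cause was not tested.

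Of the alternative values of single members, 191 kept direction and call, 8 newly passed and 17 changed sign, all 17 after leaving out libraries and none past the threshold. Over the libraries left out, Matn1 ranged from −0.39 to 0.55, Matn2 from −0.15 to 0.42, Matn3 from −0.19 to 0.70, Matn4 from 0.021 to 0.37, Comp from −0.47 to 0.11, Thbs1 from 0.027 to 0.24, Thbs2 from −0.40 to 0.098 and Thbs3 from −0.11 to 0.078 without the block. With the block Matn1 was at −0.00036 without replicate 2 (−0.074 if also centred), and Thbs3 at 0.044 without replicate 3 and 0.016 without replicate 4. Searching all annotated 3′ UTRs gave the same 5 members with a seed match. A group size of 4 limits the precision.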
